A study of Acipenser sturio with 24 samples.

Results

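The 100 most abundant components of early sturgeon embryos were followed through 24 developmental stages. They were chosen by their mean deposited value over the 7 libraries of stages 0 to 11, out of 275906 assembled components, so their high early level is how they were selected and not a result. Stages follow Nieuwkoop and Faber (NF), whose table describes development of the frog Xenopus. Each stage is represented by 1 library of whole embryos of the Bester hybrid, a cross of beluga and sterlet sturgeon, raised in 0.1 X MMR, a salt solution used for amphibian embryos. The organism field of the labels names another sturgeon, Acipenser sturio. All groups share this genotype and treatment and differ in stage. Ribosomal RNA was removed from the total RNA of each library. The groups are early (stages 0 to 11, 7 libraries), late gastrula to early neurula (stages 12 to 13.5, 4 libraries), neurula (stages 15 to 20, 5 libraries), early tailbud (stages 22 to 26, 4 libraries) and late tailbud (stages 29 to 36, 4 libraries). The sources used here do not say how many embryos or clutches made up a library, and libraries of a group are neighbouring stages, not replicates.

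An egg is loaded with RNA made by the mother during oogenesis, and the first cell divisions run on that store. Transcription from the embryo's own genome then starts, part of the maternal store is degraded, and new transcripts take its place as tissues form. In a whole-embryo library a transcript can therefore fall because it is cleared, or be outranked because others are made in larger amounts. The files pair no component with a gene name or a sequence, so no function is given to any member here.

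The deposited values have decimals and were treated here as normalized abundances, on a scale that the sources used here do not name. The deposit itself is named as counts. Values summed over all components lay between 342953 (stage 12.5) and 679612 (stage 36). A pattern in 2632 abundant components, left after a smooth stage curve was removed, put stages 0, 13, 16, 19, 24, 29 and 36 (set B) apart from the other 17 libraries (set A). The labels record no such division. In whole-embryo RNA, fewer cells that carry a transcript and less RNA per cell cannot be told apart.

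The members held more than 50% of the summed value through stage 18 and 27.8% at stage 36. Their share was 59.8% ± 2.11 (SD, 7 libraries) in early libraries, with a low of 56.9% at stage 0 and a high of 62.9% at stage 10.5. At stages 12, 12.5, 13 and 13.5 it stood at 58.4%, 62.1%, 57.5% and 57.8%, inside the range of the early libraries. The neurula libraries then spread widely, with 59.6%, 56.2% and 52.2% at stages 15, 16 and 18 and then 41.8% and 40.0% at stages 19 and 20. Early tailbud libraries lay between 34.5% and 39.3%, and late tailbud libraries between 27.8% and 31.0%. No tailbud library overlapped any library up to stage 18. Most of the early share belonged to a few members: the first 2 held 35.0% ± 4.89 (SD, 7 libraries) in early libraries, the next 8 held 16.8% ± 5.72 and the other 90 held 8.04% ± 0.47. In late tailbud libraries these shares were 18.2% ± 3.41, 6.16% ± 1.74 and 5.73% ± 0.82 (SD, 4 libraries each).

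**Figure D1:**
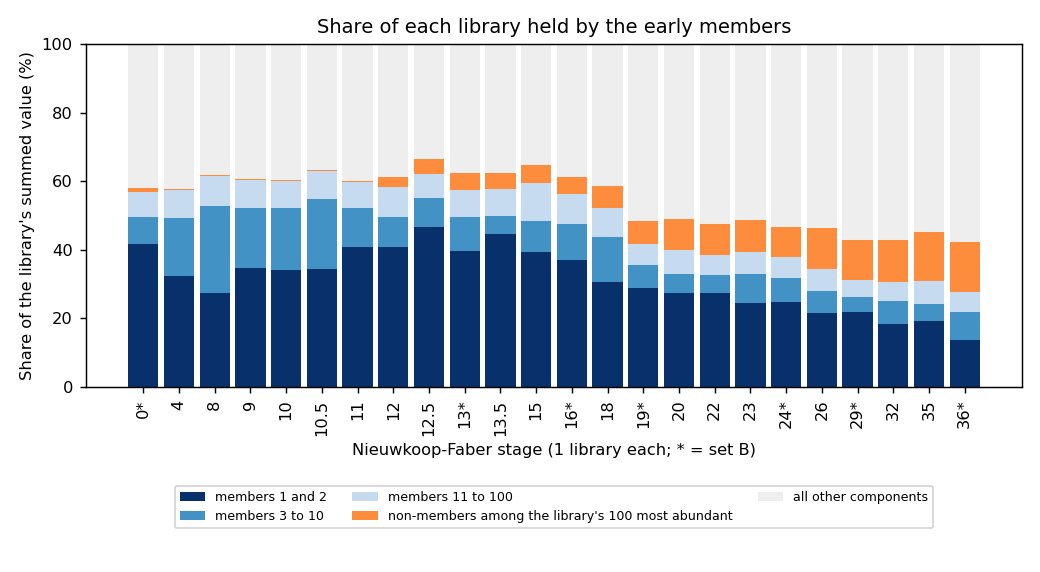
Stacked bars give the share of each library's summed deposited value (percent, axis from 0 to 100) held by members 1 and 2, members 3 to 10, members 11 to 100, non-members among that library's 100 most abundant components, and all others, for 24 stages. The members' total stays at 52.2% or more through stage 18 and ends at 27.8% at stage 36, while the non-members among the 100 most abundant reach 14.6%.

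In deposited units the members' own sum changed less than their share. It ran from 228524 to 271811 in early libraries and from 171850 to 225163 in tailbud libraries, a ratio of mean tailbud to mean early sum of 0.771. The sum over all non-members rose from between 154889 and 180759 to between 311689 and 491003, a ratio of 2.28. The direction for the members held under each scaling of the libraries, but the size did not. The ratio of member sums was 0.802 after median-of-ratios scaling, 0.681 with a trimmed mean of log ratios, 0.565 on column totals and 0.346 on column totals without the members. Both scalings on column totals restate the drop in share, and the last fixes the non-member ratio at 1. The first pair of members made up from 44.7% of the member sum, at stage 8, to 76.9%, at stage 13.5, with 49.0% at stage 36.

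The first 2 members ranked first and second in all 24 libraries. comp219603_c0 had a lowest early value of 63302 at stage 8, an early median of 88288 and a highest value of 108379 at stage 0. Its values were 100538, 88124, 102131 and 103626 at stages 12 to 13.5, and 86027, 102980, 99523, 93223 and 85362 at stages 15 to 20. Tailbud values had a low of 57636 at stage 36, a median of 70569 and a high of 89091 at stage 23, so they overlapped the early range. At stage 36 it held 8.48% of the library. The second, comp262764_c6, was the steadier of the pair among early libraries, between 54104 and 63019 with a median of 58452. It then stood at 60585, 72031, 60924 and 66756 at stages 12 to 13.5 and at 65787, 59429, 56257, 53474 and 56535 at stages 15 to 20. In tailbud libraries it ran from 34756 at stage 36 over a median of 50092 to 55683 at stage 22. Both fell over the 17 later libraries, as the test below shows, with the ratio of the first to the second between 1.09 and 1.85 over all libraries.

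Members 3 to 10 moved much more among the early libraries than the first pair, and in 2 patterns. These parted more in set B than in set A libraries. The third member, comp272848_c0, went from 15264 at stage 0 to 44925 at stage 8 and back to 16031 at stage 11, with a median of 30680. Its tailbud values, from 12727 to 24229 with a median of 16560, overlapped those early values. The fourth, comp138204_c0, followed a like course with 4823, 12286 and 4915 at stages 0, 8 and 11, and the ratio of the third to the fourth stayed between 2.17 and 4.49 in all libraries. comp269694_c2, the eighth, correlated with the fourth at r = 0.929 (log2 values, 24 libraries, Spearman rho 0.915, a description with no test).

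The second pattern was carried by members 5, 6, 7, 9 and 10, which were low at stage 0, high at stages 8 and 10.5 and low again by stage 12. comp260251_c3 stood at 1980, 5992, 12671, 7702, 9326, 11583 and 5037 in the 7 early libraries in stage order. After values of 3174, 2325, 1365 and 2135 at stages 12 to 13.5 it reached 6679 at stage 18, between 2718 at stage 16 and 2114 at stage 19. Its tailbud values lay between 1375 and 4814 with a median of 3258. The sixth member, comp255346_c3, peaked at 12175 at stage 10.5 and again stood high at stage 18, at 6123. The ratio of the fifth to the sixth member ran only from 0.739 to 1.49 while each changed over 9-fold, by 9.28-fold and 10.3-fold. comp270314_c0, the seventh, had the widest course of these 5, from 668 at stage 13 to 11159 at stage 8. comp267658_c0, the ninth, went from 965 at stage 0 to 7153 at stage 8, and comp122376_c0, member 10, from 472 at stage 13 to 5781 at stage 10.5. Stage 0 and stage 13, where these members were lowest, are set B libraries. Within set A the fifth and ninth members correlated at r = 0.990 and within set B at 0.788, over 17 and 7 libraries.

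Few other components correlated closely with these courses. A Pearson correlation of at least 0.9 with comp272848_c0 over 24 libraries, on log2(value + 1), was reached by 11 of the 99 other members and by 21 of all 46266 other components tested. With comp260251_c3 it was reached by 8 of 99 members and 13 of 46266 components. These correlations describe the libraries, which share depth and normalization across components, and the cut was set after the values were seen. Scatter at low values can keep a component under the cut, and the members are abundant by choice. The difference between members and all components is therefore not read as a result.

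The ranking turned over from stage 12 onward. Among each library's own 100 most abundant components, 89 to 92 were members at stages 4 to 11 and 75 at stage 0. At stages 12, 12.5, 13 and 13.5 the number was 84, 76, 71 and 66. It was 55, 49, 45, 38 and 38 at stages 15 to 20, then 35, 34, 32 and 32 at stages 22 to 26, and 26, 26, 26 and 25 at stages 29 to 36. The median rank of the members moved from 50.5 at stage 11 over 77 and 176 at stages 15 and 19 to 286.5 at stage 36, with its highest value, 365, at stage 35. The order among the members also loosened. The Spearman correlation of their values with their early means, across the 100 members, was 0.801, 0.587 and 0.549 at stages 12, 16 and 36. It was 0.648 at stage 0, which entered those means itself.

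**Figure D2:**
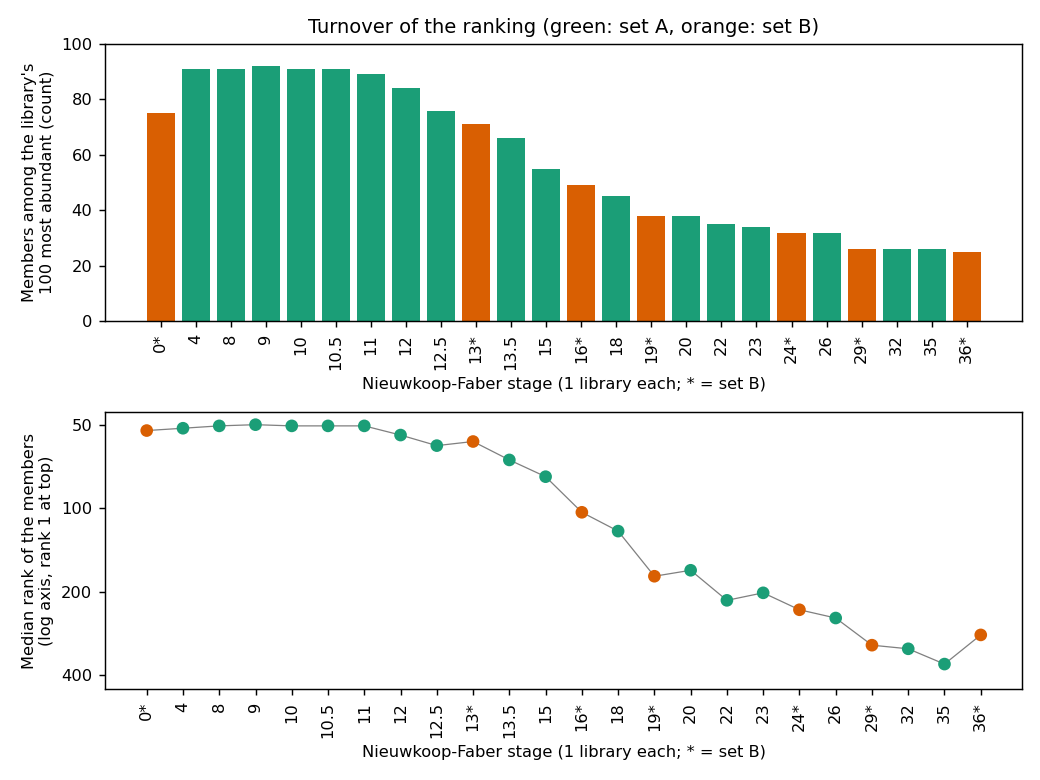
The upper panel counts the members among each library's 100 most abundant components, and the lower panel gives the members' median rank on a log axis with rank 1 at the top, for 24 stages. The count goes from 92 at stage 9 to 25 at stage 36, and set A (green) and set B (orange) libraries follow 1 course apart from stage 0, at 75.

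A core of 18 members was among the 100 most abundant in every library. It held all of the first 14 members, together with 1 further held member and 3 that rose. Of all 100 members, 6 left the list for good before stage 12, 30 were last in it at stages 12 to 13.5, 20 at stages 15 to 20, 10 at stages 22 to 26 and 34, the core included, at stages 29 to 36. Over all libraries 334 components entered a list of 100 at some stage, and 30 entered a list of 10. At stage 36 the 75 non-members on the list had values from 558 to 4757 and held 14.6% of the library. Their median early mean was 14.7. Of these non-members, 11 had an early mean under 1 and 20 ranked within the first 1000 early components. In the list of 10, members filled every place through stage 11 and 7 places at stage 36.

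By the ratio of the mean over stages 22 to 36 to the mean over stages 0 to 11, 42 members were at least 2-fold lower, 48 lay within 2-fold and 10 were at least 2-fold higher. Over the 48813 components that reached 1 in 4 or more libraries the same rule gives 11.4% at least 2-fold lower, 18% within 2-fold and 70.5% at least 2-fold higher. The early mean chose the members and also enters this ratio, so nothing is read from that contrast. The median log2 ratio of the members was -0.84, and 77 of 100 stood lower, while the median over these 48813 components was 4.49. At 4-fold in place of 2-fold, 20 were lower and 4 higher. On column totals 66 were at least 2-fold lower, so how many count as lower depends on the scaling. The median over the 48813 components was then 4.02. Shares of all components were not taken at 4-fold or on column totals, so those counts describe the members only.

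**Figure D3:**
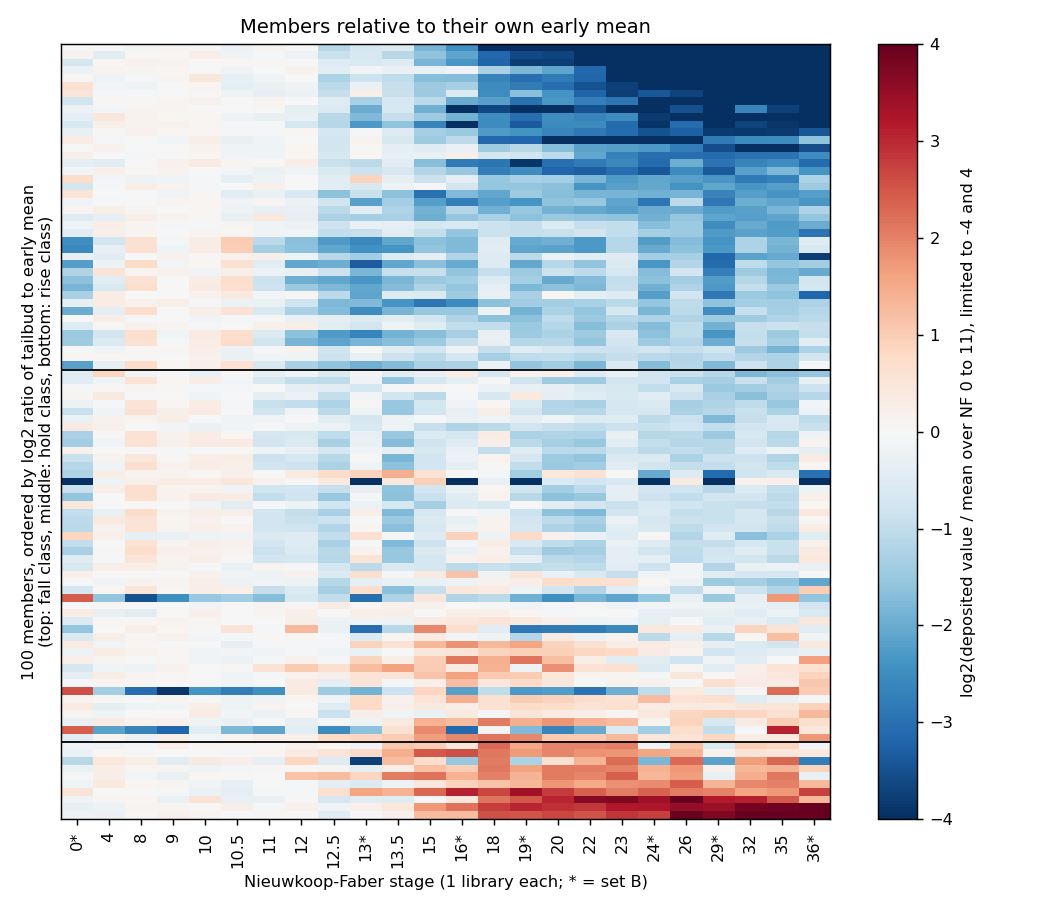
Each of 100 rows is a member, ordered by its log2 ratio of tailbud to early mean, each of 24 columns is a stage, and colour gives log2 of the deposited value over the member's own early mean, limited to -4 and 4. Lines separate the 42 members that were at least 2-fold lower (top), the 48 within 2-fold and the 10 at least 2-fold higher (bottom).

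The 42 lower members had a median early mean of 235 and a median tailbud mean of 59.3, a median ratio of 3.86-fold. They did not leave together. The stage from which a member stayed under 0.5 of its early mean in every later library lay at 12 to 13.5 for 8 members, at 15 to 20 for 17, at 22 to 26 for 4 and at 29 to 36 for 4. The other 9 were above that level at stage 36. Their summed share in the early libraries was 3.98% at stage 0, reached 13.3% and 13.4% at stages 8 and 10.5 and was 7.51% at stage 11. From stage 12 on it lay between 1.24% at stage 29 and 5.26% at stage 18. All but 2 of these 17 libraries were below the stage 0 value. Members 5, 6, 7, 9 and 10 described above are among the 42. At stage 8 they stood at 12671, 11869, 11159, 7153 and 4324, most of the summed value of 58612 for the 42. At stage 36 the median rank of the 42 was 1142, and 5 were still among the 100 most abundant.

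The lowest ratios belonged to 2 members that nearly vanished. comp261091_c0 lay between 192 and 247 in early libraries, with a median of 223. It stood at 219, 101, 137 and 150 at stages 12 to 13.5 and at 62.3, 41.2, 11.8, 5.66 and 5.47 at stages 15 to 20. Tailbud values of 2.61 to 7.68, median 4.42, overlapped only the last part of the neurula values and made the tailbud mean 49.3-fold lower than the early one. comp263267_c0 had 205 to 335 in early libraries, with a median of 287. Its later values were 242, 151, 180 and 129 at stages 12 to 13.5 and 91.2, 63.7, 31.5, 23.0 and 21.7 at stages 15 to 20. From 15.9 at stage 22 it went to 0.84 at stage 36, with a tailbud median of 3.21 and no overlap with any earlier stage. Another component of the same assembly group, comp263267_c2, is also a member and ended at 1.45. The sources used here name no assembler, and components that share a number may stem from related transcripts. In all, 3 members had a value under 1 in at least 1 library, and the lowest value of any member was 0.24.

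The 10 higher members had a median early mean of 193 and a median tailbud mean of 1016. None of them belonged to the first 10, and 7 came from places 51 to 100. The stage from which a member stayed above 2-fold its early mean lay at 12 to 13.5 for 1 member and at 15 to 20 for 4. The other 5 were not above that level at stage 36, a set B library. The lowest-ranked of the 10 at stage 36 was comp208258_c1. It stood at 29.8, below all its early values of 92.2 to 269. comp264637_c0 stood between 154 and 204 in early libraries, with a median of 189, and at 183, 136, 183 and 207 at stages 12 to 13.5. It then went to 430, 436, 1067, 1045 and 1166 at stages 15 to 20, with no overlap with any earlier library. Tailbud values ran from 1053 to 4875, with a median of 2608, and the tailbud mean was 14.6-fold above the early mean. Its rank was 8 at stage 36 against 85 at stage 0. comp267119_c1 followed a like course, from 131 to 191 with a median of 167 in early libraries and 181, 146, 186 and 217 at stages 12 to 13.5. It stood at 538, 722, 1107, 1324 and 1224 at stages 15 to 20 and between 1153 and 3135 in tailbud libraries, median 1801. Its tailbud mean was 12.1-fold above its early mean. Of the 10, 4 had their highest value at stages 15 to 20, 3 at stages 22 to 26 and 3 at stages 29 to 36.

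**Figure D4:**
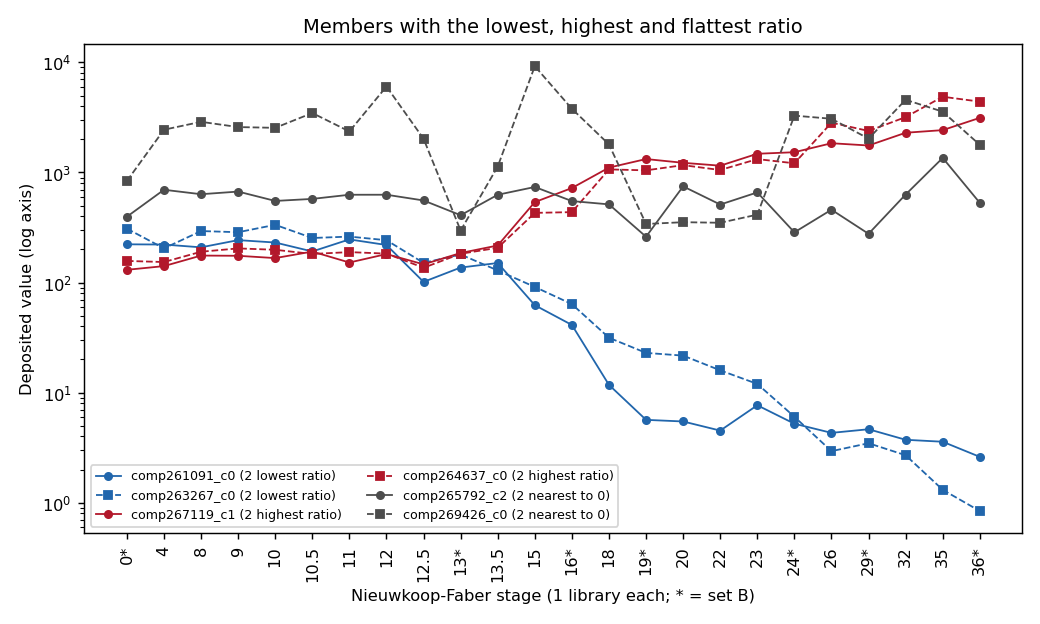
Deposited values on a log axis over 24 stages are drawn for 3 pairs of members, those with the lowest, highest and flattest ratios of tailbud to early mean. The first pair falls to 2.61 and 0.84 at stage 36, the second pair rises to 3135 and 4402, and of the flat pair comp269426_c0 swings between 297 and 9231.

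An unchanged mean did not always come from steady values. The 48 members within 2-fold differed between their highest and lowest library by 4.67-fold in the median, from 1.88-fold for comp219603_c0 to 574-fold for comp257465_c1. The lowest value of comp257465_c1, 1.15, was at stage 0, a set B library. comp265792_c2 had the ratio nearest to 1. Its early values were 396 to 697, median 628, and its tailbud values 277 to 1356, median 521, so they overlapped. At stages 12 to 13.5 it stood at 628, 557, 409 and 627, and at stages 15 to 20 at 738, 550, 513, 261 and 748. comp269426_c0, the next nearest, ran from 838 at stage 0 to 3469 at stage 10.5, median 2544, among early libraries. It then went from 6036 at stage 12 over 2025 to 297 at stage 13, back to 1133 and 9231 at stage 15, and over 3791 and 1798 down to 340 and 354 at stages 19 and 20. Tailbud values of 349 to 4574, median 2553, lay inside that range and below the values at stages 12 and 15.

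The division into library sets touched some members far more than others. For each of the 6 set B libraries after stage 11, a member's value was divided by the geometric mean of its neighbouring libraries. Stage 36 has only stage 35 as a neighbour. The median ratio over the members was 0.938. For 9 members the median over these libraries was under 0.5, and for 0 members it was above 2. The ratio was not taken over all components, and the sets were drawn from these same values. These counts therefore describe the members and are not read as particular to them. The most extreme, named after their values were seen, were comp257465_c1 and comp208258_c1. comp257465_c1 stood between 203 and 661, median 393, in the 17 set A libraries and between 1.15 and 16.7, median 10.9, in the 7 set B libraries, without overlap. For comp208258_c1 the ranges were 140 to 992 and 15.2 to 92.2. Since stage 0 is a set B library, the first of these was a member in spite of a value of 1.15 at that stage. What sets these libraries apart was not tested.

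Single libraries also placed members on the list. With stage 0 left out, 95 of the 100 were chosen again, and with any other early library left out 98 or 99. Among the early libraries, 15 members differed more than 4-fold between highest and lowest value, against 1.76-fold in the median. comp270450_c1, comp250017_c0 and comp239265_c0, named after their values were seen, stood at 3061, 1815 and 1133 at stage 0 and at 131, 114 and 72.6 at stage 4. They were again high at stage 35, at 4906, 1134 and 896. At the edge of the list the values were close. The last member, comp266761_c3, had an early mean of 144.0 and the first component outside, comp271316_c3, one of 143, with a value of 371 at stage 0 and of 66.7 to 141 at the other early stages.

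The libraries of stages 12 to 36 had no part in choosing the members, so change among them was tested. A line over stage order was fitted with limma to log2(scaled value + 1) of the 46267 components that reached 1 in 4 or more of these 17 libraries, which all 100 members passed. Libraries were scaled by the median of ratios, and p-values were adjusted over all components (Benjamini-Hochberg, threshold 0.05). Of the members, 53 fell and 4 rose, while of all components tested 9.06% fell and 42.3% rose. The median fitted log2 change from stage 12 to stage 36 was -1.23 over the members and 0.80 over all components. The filter used these same libraries. A component near 0 at stage 12 thus entered only through higher values at other stages and could hardly fall. With a filter of at least 5, 51 members fell and 4 rose, while 2439 of 11627 components fell and 4364 rose. The median over these components was 0.56. The shares of all components in the steps below carry the same limit. Members that fell had changes from -8.91 to -0.96 with a median of -2.06 (median SE 0.41), and 27 of the 53 fell by 2 or more on the log2 scale. The share of all components at that size was not taken, so the 27 describe the members only. Within set A, over 11 libraries, 47 members fell and 4 rose, against 7.53% and 43.1% of all components. Within set B, over 6 libraries, 29 fell and 3 rose, against 1.4% and 3.77%. The scaling moved the size of both medians, to -0.39 and 1.10 with values as deposited and to -2.21 and 0.45 on column totals without the members. The members that fell then numbered 38 and 86, against 4.83% and 16.2% of all components. There is 1 library per stage, so these p-values measure the scatter of stages about a line.

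**Figure D5:**
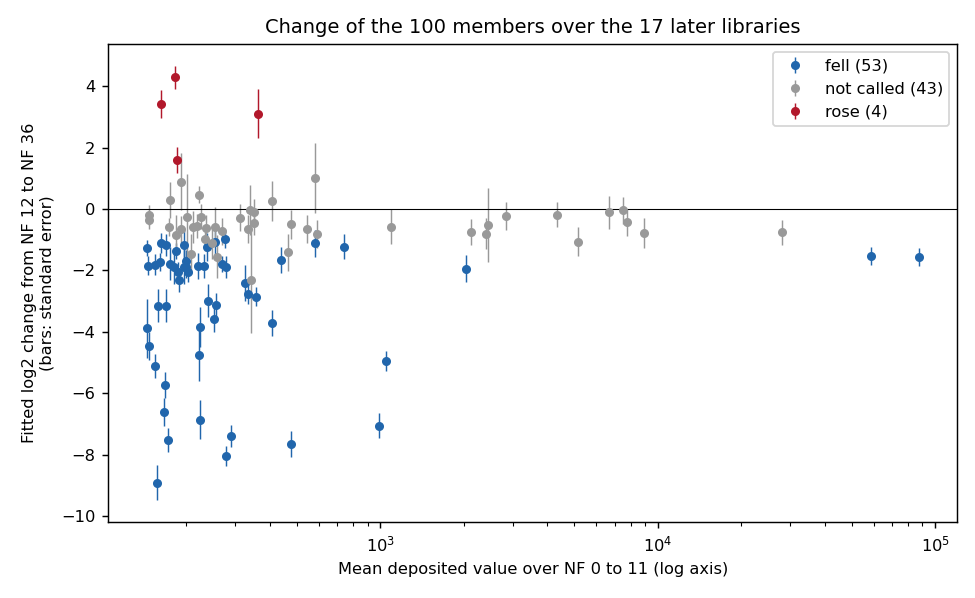
For each of the 100 members, the fitted log2 change from stage 12 to stage 36 over 17 libraries (y axis, bars are standard errors) is set against its mean deposited value over stages 0 to 11 (log x axis). Blue marks the 53 that fell, red the 4 that rose and grey the 43 not called, and the first 2 members lie near -1.57 and -1.53 at the right.

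Both leading members fell in this test. comp219603_c0 changed by -1.57 (SE 0.29, limma adjusted p = 0.000177) and comp262764_c6 by -1.53 (SE 0.30, adjusted p = 0.000333). With values as deposited these changes were -0.72 and -0.68, both still past the threshold. None of members 3 to 10 passed. Their changes lay between -1.07 for comp269694_c2 (SE 0.47, limma adjusted p = 0.0602) and -0.04 for comp255346_c3 (SE 0.45, adjusted p = 0.944). With values as deposited 7 of the 8 were above 0, as were 84.4% of all components tested, so nothing is read from that count. The 4 that rose were comp264637_c0 with 4.29 (SE 0.37, limma adjusted p = 2.24e-08), comp267119_c1 with 3.43, comp263001_c0 with 3.11 and comp265475_c1 with 1.60. The last pair is named because so few rose. comp263267_c0 fell by 8.04 on the log2 scale (SE 0.33, limma adjusted p = 9.03e-13) and comp261091_c0 fell by 6.85 (SE 0.64, adjusted p = 6.31e-08). Of the flat pair, comp265792_c2 changed by -0.80 (SE 0.46, limma adjusted p = 0.144) and comp269426_c0 by -0.52 (SE 1.21, adjusted p = 0.733). The last member, comp266761_c3, fell by 1.28 (SE 0.26, limma adjusted p = 0.00041), and the change was -0.45 and not past the threshold with values as deposited.

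Windows of stages were also compared by their means, with the stages of a window in place of replicates. The p-values of these steps thus measure the scatter of stages within windows, into which any course inside a window and the library sets enter. The members moved both ways between the first and second of the later windows and mainly down afterwards. From stages 12 to 13.5 to stages 15 to 20, 19 members rose and 20 fell (limma, adjusted over all components), where 32.3% of all components rose and 7.56% fell (39.9% in either direction). The median log2 change was 0.25 over the members and 0.49 over all components. Under other scalings the members' median ran from -0.37 to 0.19. The number that rose was 11 on column totals, 9 with the trimmed mean and 8 on column totals without the members. Of all 46267 components, 11159, 12548 and 11353 rose under these scalings. comp267119_c1 rose by 2.41 (SE 0.19, limma adjusted p = 1.78e-07) and comp264637_c0 by 2.16 (SE 0.27), while comp261091_c0 fell by 3.06 (SE 0.58) and comp263267_c0 by 2.04 (SE 0.50).

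From stages 15 to 20 to stages 22 to 26, 29 members fell and 1 rose, comp263001_c0, by 1.67 (SE 0.43, limma adjusted p = 0.0207). Of all components 2.14% fell and 7.52% rose (9.65% in either direction). The median log2 change was -0.66 over the members and 0.18 over all components. The number that fell depended on single libraries and on the sets. It was 17 without stage 26 (316 of 46267 components), 16 with values as deposited (417 of 46267) and 8 within set A (0.238% of all components). The 1 that rose was not called without stage 15, 16 or 26. comp263267_c0 fell by 2.57 (SE 0.50, adjusted p = 0.00423, limma), and comp219603_c0 changed by -0.64 (SE 0.21, adjusted p = 0.0571).

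From stages 22 to 26 to stages 29 to 36, 23 members fell and 2 rose, against 4.38% and 7.09% of all components. The median log2 change was -0.39 over the members and -0.10 over all components. Without stage 22 the number that fell was 15 (1009 of 46267 components), and within set A it was 14 (1.31% of all components). comp264637_c0 rose again, by 1.04 (SE 0.28, limma adjusted p = 0.0189), and comp272554_c0, the other that rose, by 2.01 (SE 0.53, adjusted p = 0.0167) from 4.01 at stage 23 to 47.1 at stage 36, after an early mean of 144.1. The number that rose was 1 without stage 22, 35 or 36, 0 without stage 23 and 0 within set A. Of all 46267 components, 1939 to 2874 rose in these settings. Over the 3 steps 48 members fell at least once, 18 at least 2 times and 6 in all 3, against 13.4%, 0.646% and 0.0324% of all components. In 1 step 12 members rose and in another they fell, as did 4.85% of all components. Neither a step nor the line over stages was called for 32 members and for 26.1% of all components.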

How the data were processed

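RNA of whole embryos was measured at 24 stages with 1 library each. CASAVA (1.8.2), RSEM, Bowtie and Trimmomatic were used, per the submitters' processing notes, in roles not stated there. The authors deposited a signal per component and library, treated here as normalized before deposit. Values have decimals and column totals differ, which does not by itself show a normalization. The sources used here do not say whether the signal is FPKM or how libraries were made comparable. Read depth is unknown, so no counting interval is given. All 24 columns were matched to stages through the labels (0 unmatched).

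Members, lists and windows were chosen with earlier results of these data known. The plan assumed counts as one possibility, but the values were treated as normalized. So limma 3.58.1 (R 4.3.3, trend and robust) was used on log2(scaled value + 1). It was fitted over all components of the 17 later libraries and tested on simulated data. Set B libraries scored above 0.1 on the first principal component of residuals about a curve with 4 degrees of freedom, among components of at least 5 in every library. Named components are the first 10, the extreme and flattest pairs, the list's edge and the first of each library. Alternatives were other scalings, pseudocounts, filters, list lengths and omitted libraries.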

Additional observations from a re-analysis of the deposited data

Results flagged for a closer look

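In 13 of 125 combinations of a measure and a window, 1 library stood apart from the rest of its window by Dixon's criterion. Chance alone gives about 1 in 20 for values without ties, and measures that move together are listed together. The libraries of a window are different stages, so a fast change with stage can also be listed. No cause was tested.

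Stage 36 had the lowest member share of its window, 27.8% against 30.7% to 31.0%, and 25 members among its 100 most abundant components against 26 in each of the other late tailbud libraries. Those counts of 26 are tied, so a gap of any size would be listed. comp138204_c0 stood at 11165 at stage 36 against 3912 to 4904. Stage 0 had 75 members among its 100 most abundant components against 89 to 92. At that stage comp269426_c0 stood at 838 against 2358 to 3469, and comp271316_c3, just outside the list, at 371 against 66.7 to 141.

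Stage 18 was high within its window for 4 of the first 10 members. All 4 carry the second pattern described above, so they are not separate cases. comp260251_c3 stood at 6679 against 2114 to 3244 and comp255346_c3 at 6123 against 2322 to 3136. comp267658_c0 had 3684 against 1460 to 1793, and comp122376_c0 had 2012 against 698 to 914. Stage 13 was low for comp270314_c0, at 668 against 1581 to 1720, and for comp266761_c3, at 93.9 against 122 to 126. comp264637_c0 stood at 2833 at stage 26 against 1053 to 1323.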

How the results depend on the processing

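No paired analysis was possible because there is only 1 library per stage. Settings that use only 1 library set, or omit the first 2 members, were added after seeing the data. Members that fell in the line over stages numbered 86 on column totals without the members and 29 in set B. Of all 46267 components, 7497 and 649 fell there. With 1 library left out, 49 to 58 members fell and 4 rose each time. Of all components 3686 to 4515 fell and 16164 to 21988 rose. In the first step the members that rose were 11 on column totals, 8 on column totals without the members, 9 with the trimmed mean and 10 with no filter. Of all components 11159, 11353 and 12548 of 46267 and, with no filter, 7386 of 273632 rose. Those that fell were 37 on column totals without the members (6349 of 46267 components) and 9 with no filter (2200 of 273632). With 1 library left out, 13 to 20 rose and 16 to 23 fell, against 10415 to 17382 and 2895 to 3927 of 46267 components. In the second step 0 rose with no filter (766 of 273632 components) and in set A (763 of 46267). The number that fell was 16 as deposited (417 of 46267), 12 with no filter (154 of 273632) and 8 in set A (110 of 46267). With 1 library left out, 0 to 1 rose and 17 to 40 fell, against 1531 to 4754 and 316 to 1521 of 46267 components. In the third step 1 rose with the trimmed mean (2450 of 46267 components), 0 with no filter (3865 of 273632) and 0 in set A (1939 of 46267). The number that fell was 14 both with no filter (1307 of 273632) and in set A (607 of 46267). With 1 library left out, 0 to 3 rose and 15 to 25 fell, against 2205 to 3764 and 1009 to 2409 of 46267 components.

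The mean shares over stages 0 to 11 and over stages 29 to 36 were 8.04% and 5.73% without the first 10 members. Without the first 2 they were 24.8% and 11.9%. Members at least 2-fold lower were 66 on column totals, 65 at 1.5-fold and 20 at 4-fold. Those within the fold were 27, 21 and 76, and 4 were higher at 4-fold. Shares of all components were not taken at these settings. The share of the early list still on the list in late tailbud was 34.5% for a list of 50 and 25.1% for a list of 200.

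Slopes that were not called changed sign. As deposited they were 0.10 for comp272848_c0, 0.80 for comp255346_c3, 0.62 for comp122376_c0, 0.66 for comp267658_c0, 0.040 for comp265792_c2, 0.33 for comp269426_c0, 0.74 for comp270314_c0, 0.059 for comp138204_c0 and 0.41 for comp260251_c3. With the set as a term comp255346_c3 was at 0.059 and comp270314_c0 at 0.12, and in set A at 0.14 and 0.17. In set B comp122376_c0 was at 0.40, comp267658_c0 at 0.26, comp269426_c0 at 1.46 and comp270314_c0 at 0.040. With 1 library left out comp255346_c3 ran from -0.31 to 0.19, comp269426_c0 from -1.17 to 0.12 and comp270314_c0 from -0.49 to 0.22. The cause of these changes was not tested. Fewer libraries enter a set, and more components are tested with no filter. Read depth is unknown, which limits what low values can show.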
